A study of Mus musculus with 15 samples.

Results

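Ribosome biogenesis genes encode the machinery that transcribes ribosomal RNA and trims, modifies and folds it into ribosomal subunits. The 40 genes described here are a group named by function, not picked by a threshold on these values. All 40 had a probe set assigned to them alone on the array, of 19938 genes measured that way, and 0 were skipped. By role, 6 encode RNA polymerase I subunits and factors, 7 proteins of small nucleolar ribonucleoprotein particles (snoRNPs), 12 small subunit assembly factors, 11 large subunit assembly factors and 4 nucleolar regulators.

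The study measured RNA of epithelial cells from the ventral prostate of FVB mice on 15 arrays in 5 groups of 3. Controls were primary cultures with no transduction, and the other groups were lines transformed by the c-myc, neuT, ha-ras or v-src gene, called Myc, NeuT, Ras and Src below. Of these oncogenes, Myc encodes a transcription factor, NeuT a constitutively active Erbb2 receptor, Ras a GTPase of growth factor signalling and Src a cytoplasmic tyrosine kinase. The series design gives each oncogene 3 lines, so the arrays of a group are taken as 3 lines, and no label says from how many animals or transductions they came. The animals' age is not given in the sources used here, nor is the promoter or vector that carried each oncogene. The lines were stable and grown in DMEM with serum, whereas controls grew in primary prostate epithelial medium and were moved to the lines' medium the night before harvest. Culture history and transformation therefore cannot be told apart in any comparison of lines with controls. Values are log2 expression as deposited, and in these bulk samples fewer cells of a type and less RNA per cell cannot be told apart.

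Some arrays stood apart. Control array 3 carried kidney transcripts: the 14 kidney tubule markers had a median 3.23 log2 units above the mean of control arrays 1 and 2, and 687 genes differed by at least 2-fold. Counts against control are therefore also given without that array. The median level over the 14 kidney markers was 5.84 to 9.33 in the control arrays and 5.81 to 6.08 in the lines, where 6.47 is the median of all gene values. Basal epithelial markers (10 measured) had array medians of 9.36 to 10.06 in controls, 7.14 to 7.39 in Myc, 6.38 to 6.40 in NeuT, 6.03 to 6.36 in Ras and 9.26 to 9.42 in Src. Luminal prostate markers (8 measured) had 10.18 to 10.44 in controls, 8.52 to 8.83 in Myc, 8.87 to 9.28 in NeuT, 5.89 to 6.83 in Ras and 9.76 to 10.07 in Src. Myc, NeuT and Ras arrays were thus below controls for both epithelial lists, with Ras lowest. The Myc probe set read lower in the arrays labelled Myc than in controls, so directions for that group rest on the labels. Among the lines, Ras arrays resembled each other least, with r of 0.98 to 0.987 across genes and 2-fold differences in 185 to 332 genes per pair, against 3 to 31 in the Myc, NeuT and Src pairs.

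Ribosome production begins in the nucleolus, where RNA polymerase I and its factors Ubtf and Rrn3 transcribe the long ribosomal RNA precursor. Box C/D snoRNPs guide methylation of that RNA and box H/ACA snoRNPs guide its pseudouridylation, while separate sets of assembly factors shape the small and the large subunit. Growth factor signalling through the Ras and ERK pathway is known to act on polymerase I factors, and Myc is known to bind promoters of many of these genes at the E-box CACGTG, a palindrome that reads the same on both strands.

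Promoter windows were searched for that motif because it is the best known Myc site. RefSeq windows (GRCm38.p6), each 300 bases from 250 before to 50 after the annotated start, were at hand for 36 of the 40 genes. Rrs1, Rrp12, Fbl and Bop1 had no entry. The letters CACGTG stood in 7 of the 36 windows (19.4%), those of Mybbp1a, Nop2, Utp20, Wdr43, Pes1, Tsr1 and Rrn3, against 2187 of 27025 genes with a window (8.09%). Rrn3 held the motif at 2 places, 215 and 48 bases before the start. Below are the 4 holders with the largest difference between Myc and control, and Polr1b, which has the largest such difference of all members and no CACGTG in its window. Capitals mark the motif. Mybbp1a is at chr11:72441077-72441376 (+ strand) with the motif from base 41 after the start, Nop2 at chr6:125131633-125131932 (+) with it 60 bases before the start, Utp20 at chr10:88826765-88827064 (- strand) from base 38 after the start, Wdr43 at chr17:71615965-71616264 (+) from base 18, and Polr1b at chr2:129100746-129101045 (+).
Mybbp1a: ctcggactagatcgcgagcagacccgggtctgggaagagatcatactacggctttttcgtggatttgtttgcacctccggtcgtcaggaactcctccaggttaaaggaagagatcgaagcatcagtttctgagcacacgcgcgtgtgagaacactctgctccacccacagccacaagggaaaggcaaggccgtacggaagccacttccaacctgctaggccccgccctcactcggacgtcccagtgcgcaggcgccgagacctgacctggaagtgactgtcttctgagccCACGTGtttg
Nop2: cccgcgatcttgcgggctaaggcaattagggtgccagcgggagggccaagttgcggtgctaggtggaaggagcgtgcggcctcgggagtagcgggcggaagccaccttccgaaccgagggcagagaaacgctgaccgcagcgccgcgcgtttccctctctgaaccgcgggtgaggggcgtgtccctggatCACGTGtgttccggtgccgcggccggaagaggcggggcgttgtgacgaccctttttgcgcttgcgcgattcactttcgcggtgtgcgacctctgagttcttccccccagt
Utp20: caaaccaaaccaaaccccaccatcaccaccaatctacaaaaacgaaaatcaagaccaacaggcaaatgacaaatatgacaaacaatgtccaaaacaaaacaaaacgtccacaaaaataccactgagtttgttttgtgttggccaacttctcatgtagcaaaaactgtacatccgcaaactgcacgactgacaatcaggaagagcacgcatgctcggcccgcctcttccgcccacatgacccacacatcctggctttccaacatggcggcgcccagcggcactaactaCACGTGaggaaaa
Wdr43: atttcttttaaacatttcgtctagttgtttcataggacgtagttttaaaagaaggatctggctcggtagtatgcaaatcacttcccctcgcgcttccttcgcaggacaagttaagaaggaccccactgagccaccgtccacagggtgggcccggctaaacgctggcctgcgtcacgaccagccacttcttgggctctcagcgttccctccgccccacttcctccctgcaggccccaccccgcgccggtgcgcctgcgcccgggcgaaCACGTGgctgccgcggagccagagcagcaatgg
Polr1b: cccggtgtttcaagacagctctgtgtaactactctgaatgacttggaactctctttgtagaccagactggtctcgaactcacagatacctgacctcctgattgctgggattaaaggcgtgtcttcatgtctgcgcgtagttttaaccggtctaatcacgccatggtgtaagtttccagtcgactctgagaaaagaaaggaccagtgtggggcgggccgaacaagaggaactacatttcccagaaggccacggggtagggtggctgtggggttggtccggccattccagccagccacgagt
The 7 members with the motif differed between Myc and control by a median log2 of 1.19 (0.65 to 1.44), and the 29 without it by 1.05 (0.38 to 2.07). These ranges overlapped, and a match of letters is a description of the sequence, not of binding.

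All 40 genes were higher in the transformed lines than in control cultures. Over the mean of the 4 oncogene groups, each of the 40 rose at a Benjamini-Hochberg adjusted p under 0.05 in limma, whereas 15.4% of all genes rose and 13.4% fell. The median difference over the 40 was 0.70 log2 units (0.33 to 1.24), against 0.04 over all genes. By oncogene, 40 rose in Myc (background 15.9%), 38 in NeuT (15.2%), 36 in Src (14.2%) and 16 in Ras (13.3%), and none fell in these 4 comparisons, where 12.7%, 11.6%, 12.2% and 14.2% of all genes fell. Median differences from control were 1.05 in Myc (0.38 to 2.07), 0.93 in NeuT (0.22 to 1.62), 0.69 in Src (0.07 to 1.15) and 0.32 in Ras (-0.15 to 0.85), where those of all genes lay between 0.02 and 0.06. The 4 comparisons share the control arrays, so they are not independent of each other. The same shares of all genes stand beside the counts by role below. Without control array 3, the shares of all genes that rose were 14.4% in Myc, 13.5% in NeuT, 11.6% in Src and 12.1% in Ras.

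To show single arrays, each gene was set against its own mean over the 15 arrays. That step leaves differences between arrays as they are, so the order of the groups is no second result. The median over the 40 genes was -0.42, -0.45 and -0.88 in the control arrays, 0.61, 0.49 and 0.40 in Myc, 0.33, 0.29 and 0.33 in NeuT, 0.05, 0.07 and 0.11 in Src, and -0.47, -0.12 and -0.24 in Ras. Myc arrays were highest, and Ras array 1 lay within the range of the controls. All 12 oncogene arrays were above all 3 control arrays for 12 genes, a separation that 5.44% of all genes showed in that direction. Taken by oncogene, the 3 arrays of a group were all above the 3 controls for 40 genes in Myc (23.6% of all genes), 37 in NeuT (23.4%), 38 in Src (26.3%) and 14 in Ras (18.9%). Within a group, the median SD over the 40 genes was 0.26 in controls, 0.19 in Ras, 0.11 in Myc and NeuT and 0.04 in Src.

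**Figure D1:**
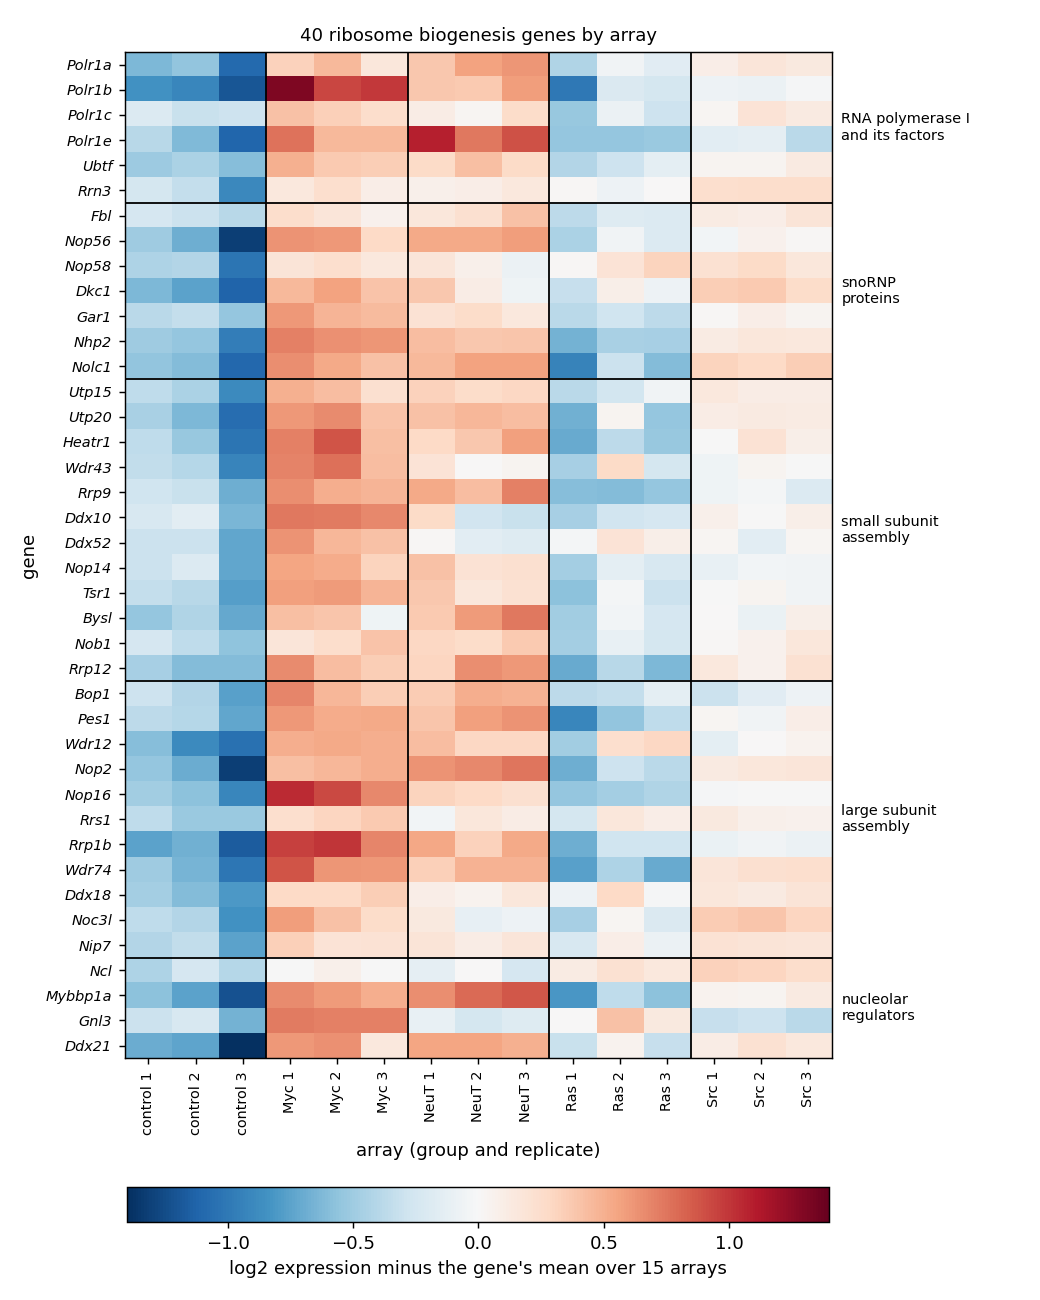
Each cell is the log2 expression of a ribosome biogenesis gene (rows, by role) in an array (columns) minus the gene's mean over the 15 arrays, red above and blue below that mean. Control columns are blue for all 40 genes, Myc and NeuT columns mostly red, and Ras array 1 is blue for most genes, with an array median of -0.47.

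Genes of RNA polymerase I rose in most oncogene groups. Of the 6, all rose in Myc, NeuT and Src, and 4 rose in Ras, with median differences from control of 0.99, 1.06, 0.66 and 0.36. Without control array 3, 2 rose in Ras (Polr1a and Rrn3; median 0.24), as Polr1b and Ubtf (limma adjusted p = 0.144) missed the threshold, and 5 rose in Src. Polr1b, a large catalytic subunit of the enzyme, had the highest difference of the 40 genes in the pooled lines. Polr1b read 6.72, 6.66 and 6.37 in control arrays 1, 2 and 3, 8.88, 8.51 and 8.56 in the Myc arrays, 7.95, 7.94 and 8.16 in the NeuT arrays, 6.57, 7.37 and 7.33 in the Ras arrays and 7.50, 7.49 and 7.55 in the Src arrays. Myc arrays lay above all others and controls at the bottom, while Ras array 1 fell between the control values. The pooled lines were 2.36-fold higher than controls (log2 1.24 ± 0.14 SE, limma adjusted p = 1.14e-05) and the Myc group was 4.19-fold higher (2.07 ± 0.18, adjusted p = 1.03e-06). In Ras the difference was 0.51 ± 0.18 (adjusted p = 0.0455), and it missed the threshold without control array 3 (0.40, adjusted p = 0.135).

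Polr1c, a subunit that RNA polymerases I and III share, had the lowest difference of the 40. Polr1c read 9.61, 9.49 and 9.51 in control arrays 1, 2 and 3, 10.21, 10.14 and 10.05 in the Myc arrays, 9.91, 9.83 and 10.06 in the NeuT arrays, 9.27, 9.72 and 9.51 in the Ras arrays and 9.83, 10.0 and 9.93 in the Src arrays. Myc, NeuT and Src arrays were all above the controls, and the Ras arrays spread to both sides of them. The pooled lines were 1.26-fold higher (0.33 ± 0.08, limma adjusted p = 0.00718), and Ras differed from control by -0.04 ± 0.11 (adjusted p = 0.839).

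Polr1e, a subunit involved in starting transcription, was highest in NeuT. Polr1e read 7.64, 7.41 and 6.92 in control arrays 1, 2 and 3, 8.79, 8.48 and 8.49 in the Myc arrays, 9.12, 8.77 and 8.92 in the NeuT arrays, 7.49, 7.49 and 7.51 in the Ras arrays and 7.88, 7.91 and 7.65 in the Src arrays. NeuT array 2 fell just below Myc array 1, and the Ras arrays were close to each other and inside the control range. NeuT was 3.05-fold above control (1.61 ± 0.16, limma adjusted p = 3.43e-06) and 1.96-fold above the mean of the other oncogene groups (0.97 ± 0.13, adjusted p = 8.53e-05). Src differed from control by 0.49 ± 0.16 (adjusted p = 0.0333), which was 0.29 with an adjusted p of 0.119 without control array 3. Polr1a, the largest subunit, and the factors Ubtf and Rrn3 each had all 12 oncogene arrays above all 3 controls. For Rrn3, which carries the polymerase to the ribosomal RNA promoter, Src had the highest group mean, and differences among the 4 oncogene groups did not pass the test.

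snoRNP proteins rose by a median of 1.28 in Myc, 0.97 in NeuT and 0.83 in Src, with all 7 called in each, and by 0.15 in Ras with 3 called (Nop56, Nop58 and Dkc1). These counts held without control array 3, with medians of 1.1, 0.82, 0.63 and 0.02. Fbl, fibrillarin, is the methyltransferase of box C/D particles and had one of the lowest differences of the 40. Fbl read 10.70, 10.63 and 10.55 in control arrays 1, 2 and 3, 11.18, 11.10 and 11.0 in the Myc arrays, 11.09, 11.16 and 11.35 in the NeuT arrays, 10.57, 10.76 and 10.74 in the Ras arrays and 11.05, 11.03 and 11.12 in the Src arrays. Ras arrays overlapped the controls and the other oncogene arrays did not. The pooled lines were 1.31-fold higher (0.39 ± 0.07, limma adjusted p = 0.000541), with 0.06 ± 0.09 for Ras (adjusted p = 0.644). A dimmer probe set of Fbl gave 0.42, 0.38, -0.03 and 0.34 for Myc, NeuT, Ras and Src against control, where the one used gave 0.47, 0.58, 0.06 and 0.44. For Wdr12 and Ddx18, the other members with more than 1 probe set, both sets gave differences above 0 in every oncogene group.

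Nop58, a core protein of the same particles, rose in all 4 oncogene groups. Nop58 read 10.59, 10.62 and 10.0 in control arrays 1, 2 and 3, 11.21, 11.26 and 11.17 in the Myc arrays, 11.20, 11.10 and 10.94 in the NeuT arrays, 11.04, 11.22 and 11.34 in the Ras arrays and 11.24, 11.29 and 11.19 in the Src arrays. Every oncogene array was above every control, and the 4 groups' ranges overlapped. Against control the lines were 1.71-fold higher (0.78 ± 0.11, limma adjusted p = 8.24e-05), Ras alone by 0.80 ± 0.14 (adjusted p = 0.000519), and the F test among the oncogene groups gave an adjusted p of 0.776 with a range of 0.16 between their means. Nolc1, a chaperone of snoRNPs that also binds polymerase I, was low in Ras. Nolc1 read 8.67, 8.62 and 8.12 in control arrays 1, 2 and 3, 9.87, 9.75 and 9.63 in the Myc arrays, 9.68, 9.78 and 9.79 in the NeuT arrays, 8.29, 8.92 and 8.61 in the Ras arrays and 9.53, 9.50 and 9.57 in the Src arrays. All Ras arrays were below all other oncogene arrays, and they overlapped the controls. Ras was lower than the mean of the other oncogenes by a log2 difference of -1.07 ± 0.13 (limma adjusted p = 1.34e-05), whereas Myc and NeuT were each 2.43-fold above control. The box H/ACA proteins Gar1 and Nhp2 likewise had all Ras arrays below the other oncogene arrays.

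Small subunit assembly factors rose in Myc, NeuT and Src. All 12 rose in Myc, 11 in NeuT, 10 in Src and 1 in Ras, with medians of 1.01, 0.80, 0.52 and 0.16. The share that rose in Ras, 8.33%, was below the 13.3% of all genes. The counts without control array 3 were 12, 9, 7 and 1, with 1 lower in Ras, and the medians 0.87, 0.65, 0.36 and 0.04. The set includes Utp15, Utp20, Heatr1, Wdr43 and Nop14 of the early processome, Rrp9 of the particle that cleaves the precursor, the helicases Ddx10 and Ddx52, and the later factors Tsr1, Bysl, Nob1 and Rrp12. Ddx10 was 0.23 above control in NeuT (limma adjusted p = 0.31) and 0.02 above it in Ras (adjusted p = 0.957). Ddx52 was the single member of the set to rise in Ras. Ddx52 read 8.62, 8.62 and 8.19 in control arrays 1, 2 and 3, 9.55, 9.39 and 9.33 in the Myc arrays, 8.94, 8.77 and 8.74 in the NeuT arrays, 8.89, 9.11 and 9.0 in the Ras arrays and 8.95, 8.77 and 8.95 in the Src arrays. Every oncogene array was above the controls, Myc arrays stood highest, and the ranges of NeuT, Ras and Src overlapped. Myc was 1.93-fold above control (0.95 ± 0.12, limma adjusted p = 2.65e-05) and Ras 1.44-fold (0.52 ± 0.12, adjusted p = 0.00357). The differences in NeuT (0.34 ± 0.12, adjusted p = 0.044) and Src (0.42 ± 0.12, adjusted p = 0.0176) missed the threshold without control array 3, with adjusted p of 0.199 and 0.0647.

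Large subunit assembly factors all rose in Myc and NeuT, 10 of the 11 rose in Src, and 5 rose in Ras (Wdr12, Rrs1, Rrp1b, Ddx18 and Nip7). Their medians were 1.06, 0.94, 0.78 and 0.40. With control array 3 left out, the counts were 11, 10, 10 and 4, and the medians 0.94, 0.80, 0.63 and 0.17. Rrp1b, a nucleolar partner of protein phosphatase 1 in this pathway, was among the highest. Rrp1b read 7.09, 7.16 and 6.67 in control arrays 1, 2 and 3, 8.79, 8.84 and 8.52 in the Myc arrays, 8.38, 8.16 and 8.36 in the NeuT arrays, 7.15, 7.56 and 7.56 in the Ras arrays and 7.74, 7.78 and 7.75 in the Src arrays. The Myc arrays were the highest and the controls the lowest, except that Ras array 1 was just under control array 2. Lines exceeded controls 2.11-fold (1.08 ± 0.11, limma adjusted p = 4.49e-06), and Myc 3.35-fold (1.74 ± 0.14, adjusted p = 5.49e-07). Ras differed by 0.45 ± 0.14 (adjusted p = 0.0265), or 0.30 with an adjusted p of 0.107 without control array 3.

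Nop16, an assembly factor known as a Myc target, had a like order. Nop16 read 9.24, 9.16 and 8.82 in control arrays 1, 2 and 3, 10.77, 10.66 and 10.40 in the Myc arrays, 10.04, 10.01 and 9.95 in the NeuT arrays, 9.19, 9.25 and 9.31 in the Ras arrays and 9.71, 9.73 and 9.72 in the Src arrays. All Myc arrays were above all NeuT arrays, those above all Src arrays, and those above all Ras arrays, of which Ras array 1 fell within the controls. Myc was 2.90-fold above control (1.54 ± 0.11, limma adjusted p = 1.65e-07) and 1.93-fold above the other oncogenes (0.95 ± 0.09, adjusted p = 4.01e-06). Ras differed from control by 0.18 ± 0.11 (adjusted p = 0.266).

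Wdr74, which acts on pre-60S particles, was the member lowest in Ras relative to the other oncogenes. Wdr74 read 8.90, 8.75 and 8.39 in control arrays 1, 2 and 3, 10.28, 10.02 and 10.01 in the Myc arrays, 9.73, 9.89 and 9.89 in the NeuT arrays, 8.64, 8.97 and 8.70 in the Ras arrays and 9.57, 9.63 and 9.64 in the Src arrays. Ras arrays overlapped the controls and were below every other oncogene array. The difference from the other oncogenes was -1.08 ± 0.10 (limma adjusted p = 1.75e-06), and from control 0.09 ± 0.13 (adjusted p = 0.657). Noc3l, which accompanies early large subunit precursors out of the nucleolus, was the member highest in Src against the other oncogenes. Noc3l read 8.43, 8.38 and 7.94 in control arrays 1, 2 and 3, 9.37, 9.20 and 9.05 in the Myc arrays, 8.93, 8.67 and 8.72 in the NeuT arrays, 8.33, 8.82 and 8.59 in the Ras arrays and 9.15, 9.18 and 9.09 in the Src arrays. Src and Myc arrays overlapped and were above all NeuT and Ras arrays. Src was 1.85-fold above control (0.89 ± 0.14, limma adjusted p = 0.000379), and its difference from the other oncogenes, 0.29 ± 0.12, missed the threshold (adjusted p = 0.103). NeuT rose against control by 0.52 ± 0.14 (adjusted p = 0.0133), with an adjusted p of 0.0519 without control array 3.

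Bop1, Pes1 and Wdr12 form a complex needed for large subunit maturation. Pes1 differed by -0.10 in Ras (limma adjusted p = 0.613) while Wdr12 rose there by 0.85 (adjusted p = 0.00135), the highest Ras difference of the 40. The Ras arrays were uneven for Wdr12, at 9.49, 10.21 and 10.27, and array 1 was just above the highest control (9.38). Bop1 differed by 0.21 in Ras (adjusted p = 0.244).

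Among the nucleolar regulators, Mybbp1a and Ddx21 shared an order of the groups, while Ncl and Gnl3 each had another. All 4 rose in Myc and 3 in each of NeuT, Ras and Src, or 4, 2, 3 and 3 without control array 3. Mybbp1a, a nucleolar protein that binds Myb and works in precursor processing, was among the highest in the pooled lines. Mybbp1a read 8.71, 8.53 and 8.06 in control arrays 1, 2 and 3, 9.94, 9.88 and 9.79 in the Myc arrays, 9.93, 10.08 and 10.15 in the NeuT arrays, 8.47, 8.93 and 8.71 in the Ras arrays and 9.33, 9.32 and 9.41 in the Src arrays. Every NeuT, Myc and Src array was above the controls, and Ras arrays overlapped them. The lines as a whole were 2.09-fold higher (1.06 ± 0.11, limma adjusted p = 6.96e-06), NeuT 3.07-fold (1.62 ± 0.14, adjusted p = 1.62e-06), and Ras 1.21-fold (0.27 ± 0.14, adjusted p = 0.196).

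Ddx21, a helicase that couples polymerase I transcription to processing, rose in every oncogene group. Ddx21 read 9.47, 9.43 and 8.72 in control arrays 1, 2 and 3, 10.77, 10.80 and 10.31 in the Myc arrays, 10.72, 10.72 and 10.66 in the NeuT arrays, 9.85, 10.21 and 9.84 in the Ras arrays and 10.27, 10.38 and 10.31 in the Src arrays. All 12 oncogene arrays were above the controls, with Ras lowest among them, and Myc array 3 stood below the other Myc arrays. The pooled lines were 2.29-fold higher (1.20 ± 0.14, limma adjusted p = 1.71e-05) and Ras 1.70-fold (0.76 ± 0.18, adjusted p = 0.005).

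Ncl, nucleolin, an abundant nucleolar RNA-binding protein, had an order of its own. Ncl read 11.23, 11.43 and 11.27 in control arrays 1, 2 and 3, 11.66, 11.74 and 11.66 in the Myc arrays, 11.54, 11.67 and 11.43 in the NeuT arrays, 11.78, 11.88 and 11.81 in the Ras arrays and 11.99, 11.97 and 11.91 in the Src arrays. Src arrays were the highest, Ras arrays next, and NeuT array 3 read the same as control array 2. Src was 1.56-fold above control (0.65 ± 0.08, limma adjusted p = 3.61e-05) and Ras 1.43-fold (0.51 ± 0.08, adjusted p = 0.00017). NeuT differed by 0.24 ± 0.08 (adjusted p = 0.0386), which became 0.21 with an adjusted p of 0.111 without control array 3.

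Gnl3, the GTPase nucleostemin, rose in Myc and Ras. Gnl3 read 10.19, 10.26 and 9.83 in control arrays 1, 2 and 3, 11.22, 11.19 and 11.20 in the Myc arrays, 10.39, 10.24 and 10.31 in the NeuT arrays, 10.50, 10.90 and 10.63 in the Ras arrays and 10.17, 10.20 and 10.11 in the Src arrays. Myc arrays were highest and close to each other, Ras arrays came next, and Src arrays lay inside the control range. Myc was 2.15-fold above control (1.11 ± 0.11, limma adjusted p = 4.69e-06) and Ras 1.5-fold (0.58 ± 0.11, adjusted p = 0.00121). NeuT and Src differed by 0.22 ± 0.11 (adjusted p = 0.193) and 0.07 ± 0.11 (adjusted p = 0.689).

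**Figure D2:**
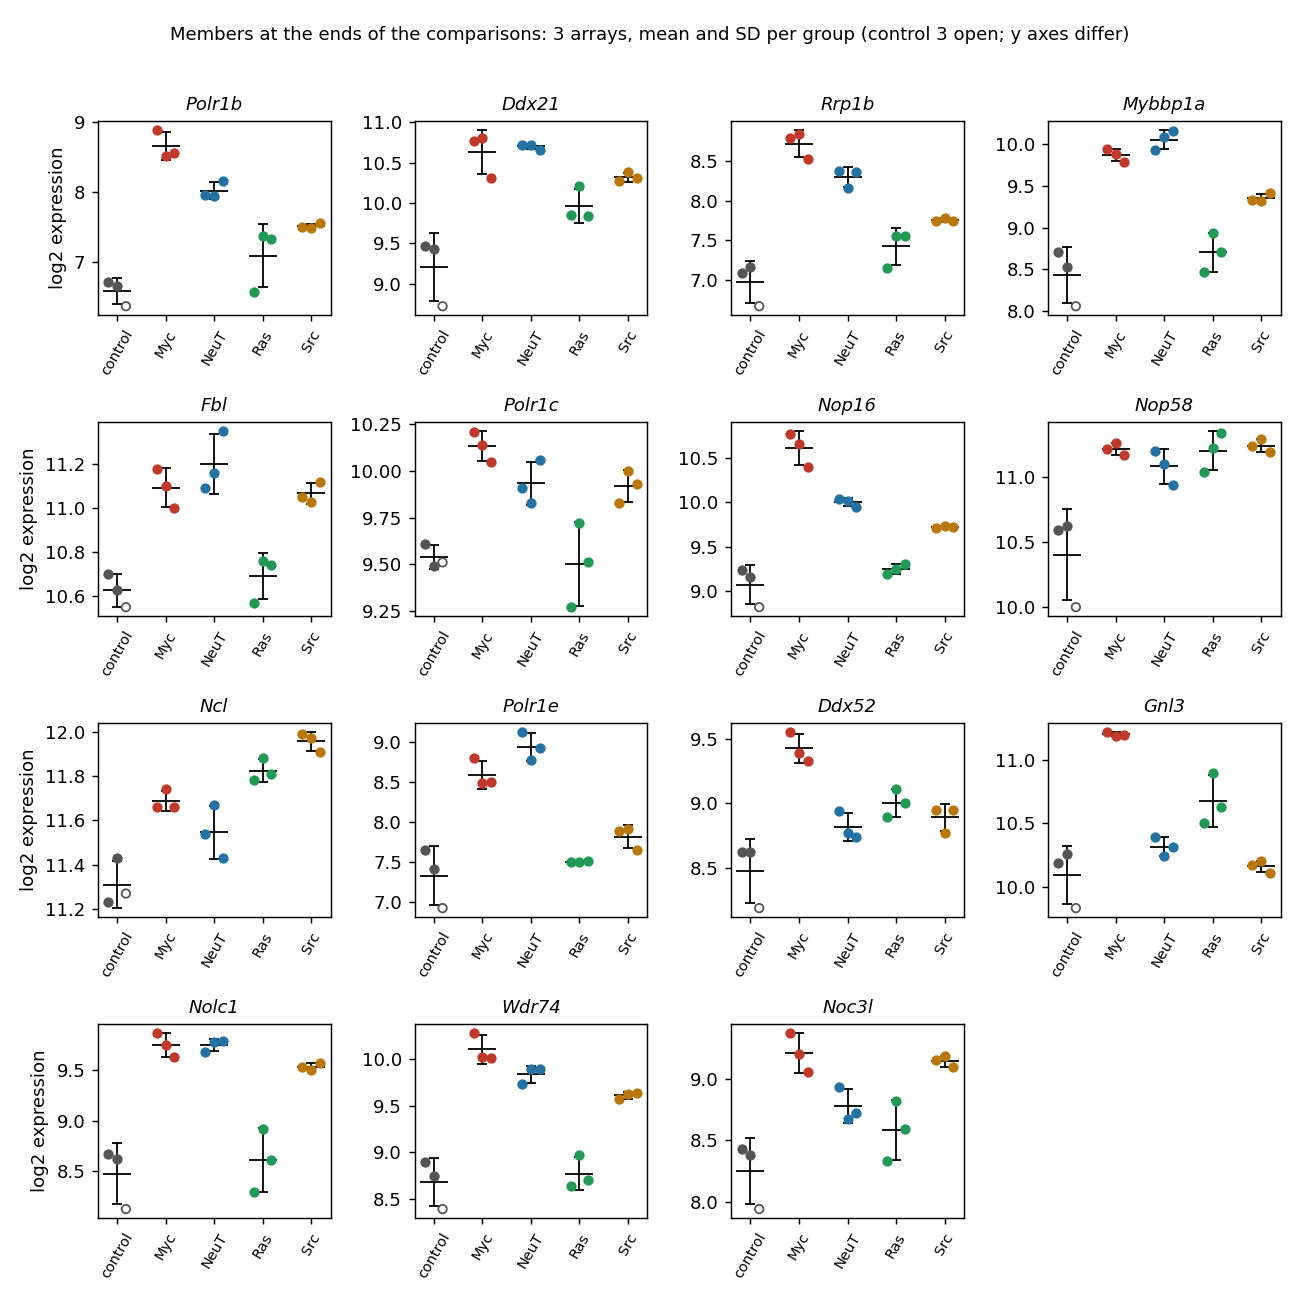
Log2 expression (y axes, which differ between panels) of 15 ribosome biogenesis genes in the 5 groups (x axes), with a point per array, control array 3 open, and the group mean and SD as bars. Polr1b shows Myc arrays at 8.51 to 8.88 above control arrays at 6.37 to 6.72, and Nolc1 shows Ras arrays overlapping controls.

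Differences among the 4 oncogene groups passed limma's F test for 35 of the 40 genes, where 42.1% of all genes passed. The exceptions were Rrn3, Nop58, Rrs1, Ddx18 and Nip7, all of which rose against control in each of the 4 groups. The most frequent order of group means was Myc, NeuT, Src, Ras, control, found in 14 genes, followed by the same order with NeuT first in 10. Controls had the lowest mean in 36 genes, Ras the lowest oncogene mean in 35, and Myc or NeuT the highest in 37. In Polr1c, Rrp9, Rrp12 and Pes1 the Ras mean was below the control mean, with differences of -0.04, -0.15, -0.01 and -0.10 that did not pass the test.

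Myc arrays were higher than the mean of the other oncogene groups for 26 genes (12.1% of all genes), with a median of 0.45 over the 40 (-0.09 to 1.11) against -0.01 over all genes. None of the 40 was lower there, whereas 8.43% of all genes were. By role, these were 4 polymerase I genes, 4 snoRNP genes, 10 small subunit factors, 6 large subunit factors and 2 regulators. Polr1b (1.11 ± 0.14, limma adjusted p = 8.75e-05) and Nop16 were the highest. Ncl (-0.09 ± 0.06, adjusted p = 0.434) and Nop58 (0.04 ± 0.11, adjusted p = 0.895) were the lowest. All 3 Myc arrays were above all 9 other oncogene arrays for 14 genes, where 5.62% of all genes were.

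NeuT arrays were higher than the other oncogenes for 16 genes (12.9% of all genes) and lower for 3 (8.1%), with a median of 0.26 (-0.37 to 0.97) against -0.02 over all genes. Polr1e and Mybbp1a (0.74 ± 0.12, limma adjusted p = 0.000408) were the highest, and the 3 that were lower were Gnl3 (-0.37 ± 0.09, adjusted p = 0.0101), Ddx52 (-0.29 ± 0.10, adjusted p = 0.0476) and Ncl (-0.28 ± 0.06, adjusted p = 0.00619). Nop2, an RNA methyltransferase of the large subunit pathway, was the single gene with all NeuT arrays above the other oncogene arrays, where 6.49% of all genes had that pattern. Leaving out NeuT array 2 or NeuT array 3 reduced the counts to 9 higher and 1 lower in each case.

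Ras arrays were lower than the other oncogenes for 31 genes (18.3% of all genes) and higher for 0 (13.2%), with a median of -0.54 (-1.08 to 0.12) against -0.03 over all genes. These were 5 of the 6 polymerase I genes, 6 of the 7 snoRNP genes, 10 of the 12 small subunit factors, 8 of the 11 large subunit factors and 2 of the 4 regulators. Among them, 3 were at least 2-fold lower: Wdr74, Nolc1 and Mybbp1a (-1.06 ± 0.12, limma adjusted p = 9.15e-06). The 9 that did not pass were Rrn3, Nop58, Wdr43, Ddx52, Wdr12, Rrs1, Ddx18, Ncl and Gnl3, and the highest of these was Gnl3 (0.12 ± 0.09, adjusted p = 0.383). All Ras arrays were below the other 9 oncogene arrays for 26 genes, where 9.59% of all genes were.

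Src arrays lay near the middle of the oncogene groups. A single gene, Ncl, was higher than the mean of the others (0.27 ± 0.06, limma adjusted p = 0.00803; 8.96% of all genes were higher), and 5 were lower (11.3% of all genes), with a median of -0.08 (-0.57 to 0.29) against 0.03 over all genes. The 5 were Gnl3 (-0.57 ± 0.09, adjusted p = 0.000498), Polr1e (-0.53 ± 0.13, adjusted p = 0.00895), Bop1, Rrp1b and Rrp9. All Src arrays were above the other oncogene arrays for Rrn3 and Ncl (5.84% of all genes) and below them for Gnl3 (4.46%). Without Src array 1, 2 or 3 the count of lower genes was 2, 3 and 2. Without Ras array 2, 2 genes were higher.

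The comparison with controls was repeated without control array 3. All 40 genes were lower in that array than in the mean of the other controls, by -0.73 to -0.04 with a median of -0.43, where 12287 of all 19938 genes were lower and the median was -0.06. Mitotic genes (21 measured) and basal markers were also lower there, each by a median of -0.54, and their part in the members' values was not tested. Without it, 39 genes rose in the pooled lines (12.3% of all genes), 40 in Myc (14.4%), 34 in NeuT (13.5%), 32 in Src (11.6%) and 13 in Ras (12.1%), and apart from Rrp9 in Ras none fell (13%, 13.3%, 11.8%, 13.1% and 14.6% of all genes). Medians were 0.59, 0.91, 0.80, 0.54 and 0.17. Ddx10 was the gene lost in the pooled lines (limma adjusted p = 0.116), and Rrp9 fell in Ras (adjusted p = 0.0436). Among the oncogene groups, 32 genes were then higher in Myc (14%) and 0 lower (10.1%), 21 higher and 3 lower in NeuT (14.6% and 9.9%), 0 higher and 33 lower in Ras (14.6% and 20.3%), and 2 higher and 8 lower in Src (10.9% and 13.5%). The F test then passed for 37 genes (46.5%).

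**Figure D3:**
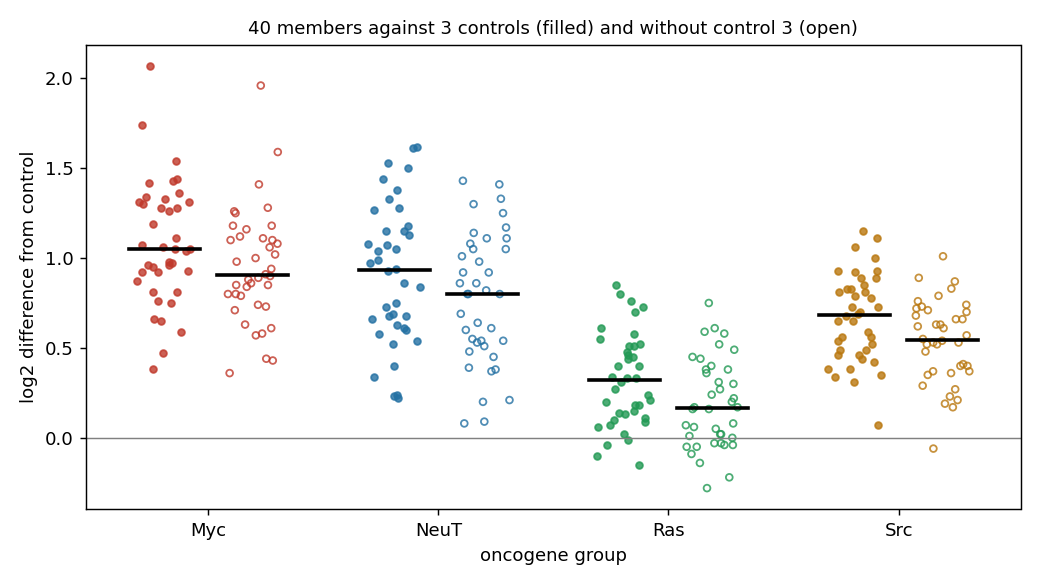
Log2 difference of each of the 40 genes from control (y axis) in the 4 oncogene groups (x axis), with all 3 controls (filled) and without control array 3 (open); bars are medians over the genes. The median fell from 1.05 to 0.91 in Myc, 0.93 to 0.80 in NeuT, 0.32 to 0.17 in Ras and 0.69 to 0.54 in Src.

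Other genes of the same pathway moved in the same direction. Of 73 further ribosome assembly factors with a probe set, 64 rose in the pooled lines (15.4% of all genes) and 0 fell (median 0.50). Of the 73, 69 rose in Myc (15.9% of all genes), 57 in NeuT (15.2%), 42 in Src (14.2%) and 29 in Ras (13.3%). Without control array 3, 51 rose in the pooled lines (12.3% of all genes), 67 in Myc (14.4%) and 50 in NeuT (13.5%). In Src 32 then rose (11.6%) and 2 fell (13.1%), and 17 rose in Ras (12.1%). Against the other oncogenes, 47 were higher in Myc (12.1% of all genes), and 46 were lower (18.3%) and 3 higher (13.2%) in Ras. Ddx56, a helicase of large subunit assembly, averaged 8.41 ± 0.18 in controls, 9.59 ± 0.02 in Myc, 9.33 ± 0.07 in NeuT, 8.49 ± 0.10 in Ras and 8.81 ± 0.07 in Src (SD, n = 3 arrays each), so that Ras was near control. Noc4l, of the small subunit pathway, had means of 7.60, 8.45, 8.44, 7.48 and 7.89 in that group order. Wdr36, of the same pathway, was highest in Ras, at 10.14 ± 0.21 against 8.53 ± 0.21 in controls (1.61 ± 0.12 SE).

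RNA polymerase genes outside the 40 were called in part. Of 7 other polymerase I genes, 2 rose in the pooled lines and 0 fell (1 and 0 without control array 3), 4 rose in Myc (2 without that array), 2 in Ras and 1 in Src, and in NeuT 1 rose and 1 fell. The F test among the oncogene groups passed for 6 of the 7, and 4 were higher and 1 lower in Myc than in the other oncogenes. Polr1d, a subunit shared with polymerase III, rose by 0.70 ± 0.08 in Myc. Taf1b, of the promoter selectivity factor, fell by 0.82 in NeuT, and Tbp, the TATA-binding protein, rose by 0.59 ± 0.13 in Ras. Of 19 polymerase III genes, 6 rose and 0 fell in the pooled lines, 8 rose in Myc and 7 in NeuT, in Src 4 rose and 1 fell, and in Ras 1 rose and 2 fell, with 11 of the 19 passing the F test. In the pooled lines, 28.6% and 31.6% of these 2 lists were called and all of them rose, where 15.4% of all genes rose and 13.4% fell. By oncogene, 15.9% of all genes rose in Myc, 15.2% in NeuT, 14.2% in Src and 13.3% in Ras. The polymerase III counts without control array 3 were 4 up in the pooled lines, 8 in Myc and 5 in NeuT, 3 up and 1 down in Src, and 1 up and 4 down in Ras. Polr3g, a subunit of that enzyme, rose by 1.58 ± 0.18 in Myc, 1.57 ± 0.18 in NeuT and 0.98 ± 0.18 in Src. Gtf3a, the factor for 5S ribosomal RNA, averaged 8.88 in controls, 9.59 in Myc, 9.57 in NeuT and 8.65 in Ras, and Polr3b 8.0, 8.78, 8.83 and 8.03.

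Ribosomal proteins are the structural parts of the ribosome. Of 56 cytosolic ribosomal protein genes with a probe set of their own, of 80 listed, 21 rose and 0 fell in the pooled lines (median 0.13), with 20 up in Myc, 15 in NeuT and 24 in Src, and 7 up and 3 down in Ras. Of all genes, 15.4% rose in the pooled lines, 15.9% in Myc, 15.2% in NeuT and 14.2% in Src. In Ras, 13.3% of all genes rose and 14.2% fell. Leaving out control array 3 gave 11 of the 56 up in the pooled lines, 12 in Myc, 12 in NeuT and 17 in Src, with 4 up and 2 down in Ras. Against the other oncogenes, 27 were lower and 3 higher in Ras. Fau averaged 11.32 in controls and 11.0 in Ras, Rpl6 12.11 and 11.96, and Rps3a1 11.56 and 12.14. Mitochondrial ribosomal protein genes (78 measured) had 32 up and 3 down in the pooled lines (median 0.21), 45 up and 2 down in Myc, 32 up and 5 down in NeuT, 21 up and 8 down in Src, and 8 up and 9 down in Ras. The share called was 44.9% in the pooled lines, 60.3% in Myc, 47.4% in NeuT, 37.2% in Src and 21.8% in Ras. Of all genes, 28.7%, 28.6%, 26.8%, 26.4% and 27.4% were called, in that order. Without control array 3, 37 were up and 3 down in the pooled lines, 49 and 1 in Myc, 40 and 1 in NeuT, 25 and 5 in Src, and 13 and 8 in Ras. Mrpl16 rose by 1.01 ± 0.09 in Myc and Mrpl34 by 0.72 ± 0.11, while Mrpl34 fell by 0.68 in Ras. Mrpl9 rose by 0.89 ± 0.11 in NeuT.

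Mitotic genes are set beside the members because ribosome production and cell division are known to be linked. All 21 rose in the pooled lines (median 1.16), in Myc (1.19), NeuT (1.37) and Ras (1.19), and 18 rose in Src (0.95). With 2 controls (array 3 left out) these were 21, 21, 21, 21 and 17, with medians of 0.97, 1.0, 1.16, 1.03 and 0.71. In Ras, the median difference of mitotic genes from control equalled that in Myc, while 16 of the 40 ribosome biogenesis genes rose. Against the other oncogenes, none of the 21 was called in Myc (median 0.03), 9 were higher in NeuT (0.31), 4 higher and 2 lower in Ras (0.12) and 13 lower in Src (-0.42). These counts were, without control array 3, 3 higher in Myc, 11 higher and 2 lower in NeuT, 9 higher and 2 lower in Ras and 14 lower in Src. The part of cell division in the members' values was not tested. Counts in the pooled lines for the marker lists were 9 of 10 basal and 5 of 8 luminal genes lower, 2 of 10 fibroblast genes lower, 5 of 8 smooth muscle genes lower and 1 higher, 0 of 10 endothelial and 0 of 14 kidney genes either way, and 1 of 9 leukocyte genes lower. Without control array 3, 4 smooth muscle genes were lower and 0 higher, 1 endothelial and 1 kidney gene were higher, 0 leukocyte genes were called, and the basal, luminal and fibroblast counts were 9, 5 and 2 lower. Of all genes, 15.4% were higher and 13.4% lower in the pooled lines, or 12.3% and 13% without control array 3. The groups differed within the marker lists. In Src, 4 basal genes were higher than in controls and 2 lower (median 0.38; 3 and 3 without control array 3), and all 10 were higher than in the other oncogenes, while in Ras 9 basal and 7 luminal genes were lower than in controls. Among fibroblast genes, Col3a1 (0.54) and Dcn (1.14) were higher in Ras than in controls and Pdgfra and Postn lower, with Pdgfra not called without control array 3. The part of these cell type markers in the members' values was not tested.

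**Figure D4:**
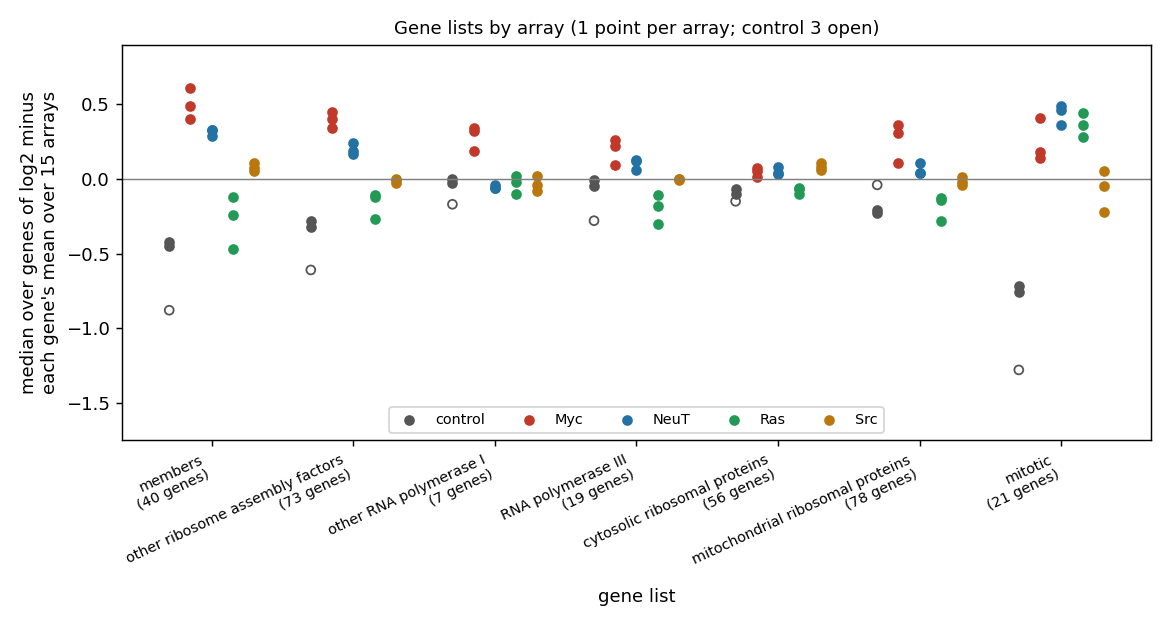
Median over the genes of a list of log2 expression minus each gene's mean over the 15 arrays (y axis), with a point per array, for the 40 ribosome biogenesis genes (members) and 6 other lists (x axis); control array 3 is open. Myc arrays lie at 0.40 to 0.61 for the 40 genes, while for mitotic genes the Myc (0.14 to 0.41), NeuT (0.36 to 0.49) and Ras (0.28 to 0.44) arrays interleave.

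Myc and its partners control many ribosome biogenesis genes, and the RNA of Myc itself followed another order. Myc read 9.92, 9.82 and 9.38 in control arrays 1, 2 and 3, 8.81, 8.60 and 8.94 in the arrays labelled Myc, 10.85, 11.03 and 11.02 in NeuT, 8.62, 8.72 and 9.45 in Ras and 10.53, 10.29 and 10.60 in Src. NeuT and Src arrays were above all controls and the arrays labelled Myc below them. The differences from control were -0.92 ± 0.19 in Myc (limma adjusted p = 0.00207), 1.26 ± 0.19 in NeuT (adjusted p = 0.000189), -0.77 ± 0.19 in Ras (adjusted p = 0.00733) and 0.77 ± 0.19 in Src (adjusted p = 0.00926). The files do not say whether the probe set covers the transduced c-myc. Of the 12 network genes, 2 rose and 1 fell in Myc, 2 rose and 1 fell in NeuT, 0 rose and 4 fell in Ras, and 1 rose and 1 fell in Src (2 rose and 0 fell without control array 3). The shares called in either direction were 25%, 25%, 33.3% and 16.7%, where those of all genes were 28.6%, 26.8%, 27.4% and 26.4%. The share was above that of all genes in Ras, where the 4 called genes all fell and 14.2% of all genes fell. Mxi1, a Max partner that opposes Myc, rose by 0.61 ± 0.10 in Myc (adjusted p = 0.000229) and fell by 0.63 in Ras (adjusted p = 0.000176), and Max differed by 0.21 ± 0.09 in Myc (adjusted p = 0.12).

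**Figure D5:**
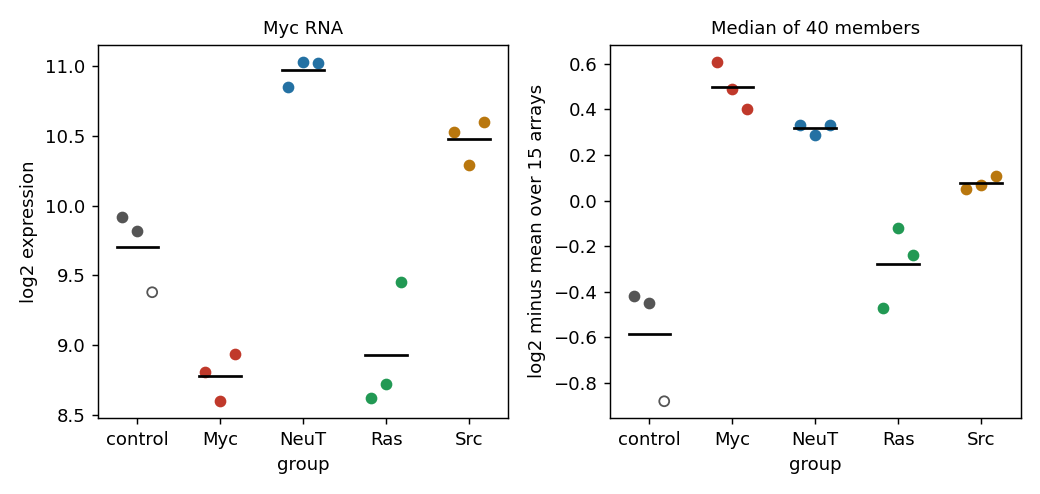
Left, log2 expression of Myc by group, a point per array, with the group mean as a bar and control array 3 open; right, the median over the 40 ribosome biogenesis genes after subtracting each gene's mean over 15 arrays. The arrays labelled Myc are low on the left (8.60 to 8.94) and highest on the right (0.40 to 0.61).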

How the data were processed

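The authors deposited log2 expression values for 15 Affymetrix arrays. The submitters' processing notes name RMA and Affymetrix Expression Console 1.1 but give neither role nor order. Total RNA was isolated with Trizol and then amplified by WT-Ovation Pico, per the labels. The genome build, like the background setting, is not given in the sources used here. The number of arrays limits the precision.

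Of 35556 probe sets, 21789 had 1 gene in the platform annotation, 1621 several and 12146 none. Entrez identifiers matched 21698 of the former to the reference annotation. The brightest set by mean was used for 999 genes with several sets, which gave 19938 genes, with no filter on low values; array medians were 6.19 to 6.32. Means of the 5 groups were estimated from all 15 arrays by limma 3.58.1 in R 4.3.3. P-values are two-sided, adjusted by Benjamini-Hochberg over all genes, and called under 0.05 with no fold minimum. Errors of differences are SE and those of levels SD. P-values set each difference against the spread between these samples within groups, which the fit takes as the same in all 5 groups. On simulated data with 200 changed genes, 2-fold changes were recovered in 95%, 93%, 95.5% and 94% of cases for Myc, NeuT, Ras and Src against control, and 1.5-fold changes in 60.5%, 68%, 59% and 73.5%. False calls made up 4.04%, 7.92%, 5.45% and 5.53% of calls at 2-fold, and 5.47%, 9.93%, 2.48% and 3.92% at 1.5-fold. The simulation gave each gene the same spread in all groups and changed fewer genes than were called in the data. It therefore cannot compare recovery between groups whose spread differs.

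The members and lists were chosen with earlier results of these data known. Array values are given for the 4 highest and 2 lowest members in the pooled lines, and the 2 highest and 2 lowest of each oncogene against the others; up to 3 genes of each pathway list, by smallest F test p, and Myc are also named. Members named in other sentences were chosen after their values were seen. Alternatives were median centring, quantile normalization, no dim genes, mean of probe sets, trended robust variance, array weights, only the groups compared, a replicate block, each array left out, and a 2-fold minimum. Figures were drawn with Python 3.11.15 and matplotlib 3.10.9.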

Additional observations from a re-analysis of the deposited data

How the results depend on the processing

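Of 252 member calls, each repeated under 25 alternatives, 5898 of 6300 values kept direction and threshold, 402 missed the threshold (198 of them under the 2-fold minimum) and 0 changed direction. Members not called in the fit of all arrays are not in this count. Direction could not change under alternatives that leave the difference as it is. These include no dim genes, trended robust variance, leaving out an array of a group not compared, and the 2-fold minimum. With that minimum, members higher were 8 in the pooled lines, 22 in Myc, 17 in NeuT, 0 in Ras and 3 in Src against control (all genes called 932, 1288, 1182, 1412 and 886 against 5730, 5699, 5339, 5469 and 5263 without it). Against the other oncogenes 1 was higher in Myc, 0 higher and 0 lower in NeuT and in Src and 3 lower in Ras (all genes 448, 488, 527 and 988 for Myc, NeuT, Src and Ras, against 4096, 4184, 4048 and 6277), and 15 of 40 members and 2237 genes passed the F test (8386 without the minimum). Fitting only the groups compared, 7 of the 40 members rose in Ras (16 in the fit of all arrays). In that fit 3567 of 19938 genes were called in either direction, a share near that of the members. That fit estimated the spread from the compared groups alone, and the cause of the lower count was not tested. Array weights gave 2 members lower in Ras against control. In Src against the other oncogenes, array weights gave 2 higher, quantile normalization gave 2 higher and 3 lower, and leaving out control array 3 gave 1 lower in Ras against control and 2 higher and 8 lower in Src against the others; the cause was not tested. Leaving out 1 array at a time, members higher ranged over 39 to 40 in the pooled lines, 34 to 38 in NeuT, 12 to 20 in Ras (0 to 1 lower) and 32 to 37 in Src, with 40 in Myc each time. Against the other oncogenes the ranges were 19 to 32 higher in Myc, 9 to 21 higher and 1 to 4 lower in NeuT, 28 to 33 lower in Ras, 1 to 2 higher and 2 to 8 lower in Src, and 33 to 38 in the F test. Under median centring the median of all genes was 0.107 in Myc against control (0.029 as deposited). Arrays with equal replicate numbers were at most weakly alike. Over 30 same-number pairs r was -0.09 to 0.12 with 2 over 0.1, while 11 of 15 arrays correlated best with their own number. With the replicate number as a block, 40 members rose in the pooled lines, 40 in Myc, 38 in NeuT, 14 in Ras and 36 in Src, and 249 of the 252 calls held; the block without control array 3 gave 2 higher in Src against the other oncogenes. No level above background was measured here, and 3 arrays a group limit what small differences can pass.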
